A study of Mus musculus with 2 samples.

Results

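Transcripts of the proteasome, the barrel-shaped protease that degrades ubiquitin-tagged proteins, were compared between 2 single-cell libraries of mouse bone marrow. The genes were the 47, of 32286 features, whose symbols run from Psma to Psmg followed by a digit, without the 3 immunoproteasome genes Psmb8, Psmb9 and Psmb10. No pseudogene with a -ps symbol was among the features. Of the 47, 33 encode subunits of the 20S core or the 19S cap. The other 14 are 7 assembly chaperones, 6 activators or inhibitors and Psmc3ip, a meiotic recombination factor that shares only the start of its symbol, so the name proteasome subunits does not cover them.

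One library came from Mx1Cre+/-;Rosa26+/+ mice, called the control here, and 1 from Mx1Cre+/-;Rosa26LSL-MYC/LSL-MYC mice, called MYC here. Both genotypes carry Mx1-Cre, a recombinase under an interferon-inducible promoter that acts in blood cells and in other tissues. In the MYC mice a stop cassette flanked by lox sites precedes a MYC transgene at both Rosa26 alleles, so that Cre allows its expression. The labels name no agent that induced Cre, no age and no number of animals pooled. Each group had 1 library, so no difference between them was tested, and differences between the genotypes cannot be told apart from differences between 2 animals or 2 preparations.

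In the 26S proteasome, a 20S core of alpha and beta rings is capped by 19S particles. The alpha ring gates the channel, and Psmb5, Psmb6 and Psmb7 encode the subunits that cut peptide bonds. The 19S ATPases unfold substrates, and the non-ATPase subunits bind ubiquitin chains and remove them. The PA28 and PA200 activators (Psme genes) can cap the core in place of the 19S particle, and Psmf1 encodes PI31, described as an inhibitor of the core. In many cells the transcription factor NRF1 raises the subunit genes together when the proteasome is inhibited. In blood formation, proteasome activity is needed by dividing progenitors and by maturing red cells, which clear much of their protein content.

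Promoter sequences are shown for the catalytic genes Psmb5 and Psmb6, which were higher in the MYC library in every class compared, and for Psme4, which was lower in every class. Each run gives 250 bases before and 10 after the annotated start, 5′ to 3′ on the gene's strand, from RefSeq on GRCm38.p6. Capitals mark the letters TGACNNNGC, the core of the antioxidant-response-type element that NRF1 can bind, on either strand. Psmb5 lies on the minus strand (chr14:54617986-54618245), Psmb6 on the plus strand (chr11:70525107-70525366) and Psme4 on the plus strand (chr11:30771525-30771784).
Psmb5: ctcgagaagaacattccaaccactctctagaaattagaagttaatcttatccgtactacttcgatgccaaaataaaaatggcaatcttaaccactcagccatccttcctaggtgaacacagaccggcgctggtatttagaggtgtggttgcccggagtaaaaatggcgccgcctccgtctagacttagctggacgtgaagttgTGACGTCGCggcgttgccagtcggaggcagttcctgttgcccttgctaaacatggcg
Psmb6: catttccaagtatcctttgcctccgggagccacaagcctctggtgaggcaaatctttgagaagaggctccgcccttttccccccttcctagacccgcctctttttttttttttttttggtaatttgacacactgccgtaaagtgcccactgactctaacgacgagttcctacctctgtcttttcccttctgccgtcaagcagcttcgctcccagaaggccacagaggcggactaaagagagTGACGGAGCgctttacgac
Psme4: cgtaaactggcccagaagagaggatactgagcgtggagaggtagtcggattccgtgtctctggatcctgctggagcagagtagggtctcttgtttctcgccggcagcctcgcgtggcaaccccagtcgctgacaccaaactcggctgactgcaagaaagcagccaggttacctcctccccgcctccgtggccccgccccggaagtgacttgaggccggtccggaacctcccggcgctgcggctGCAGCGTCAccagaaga
The match started at base 204 of the run in Psmb5, at 242 in Psmb6 and at 244 in Psme4. The letters were thus in the promoter of genes with ratios on both sides of 1. Of the 39 proteasome genes with a promoter entry, 6 (15.4%) held TGACNNNGC, against 12.4% of 32851 mouse promoters, all read over 250 bases before and 50 after the start. They were Psmb5, Psmb6, Psmc6, Psmd9, Psmd12 and Psme4. Psma2, Psma5, Psmb2 and Psmd8 were also higher by the fold in every class and were not among these 6, so the promoters shown do not represent such genes. The MYC E-box CACGTG was in 3 of the 39 (7.69%) and in 7.15% of all promoters, and CCAAT was in 14 (35.9%) and in 37.4%. Both strands were searched, and matches of different motifs were allowed to overlap. A match is a run of letters and not a measured site.

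The libraries held 131884603 UMIs in 17073 barcodes for the control and 110012176 UMIs in 14496 barcodes for MYC. After filters, 14760 control cells and 12645 MYC cells remained, with medians of 5321.5 and 6014 UMIs and 2.14% and 1.92% mitochondrial UMIs. The MYC transgene feature had 295 UMIs in the MYC library and 0 in the control. Cells were clustered without any Psm gene, and clusters were named from fixed markers, so a name such as monocytes means monocyte-like by those markers. The 9 classes with at least 100 cells in each library were compared: stem or multipotent progenitors (428 control and 516 MYC cells), granulocyte progenitors (377 and 307), immature neutrophils (3384 and 3212), mature neutrophils (2995 and 2392), monocytes (1069 and 1361), mature B cells (574 and 145), T or NK cells (388 and 152), erythroid cells (1063 and 302) and basophils or mast cells (188 and 147). The T or NK class was 1 cluster led by Ccl5, Cd3g, Trbc2 and Cd3e. The erythroid class joined clusters 9 and 23, both named early erythroid. Cluster 3 (393 control and 301 MYC cells), whose markers scored nearest to erythroblasts, was left unnamed and outside the class. Mature neutrophils came mostly from different clusters in the 2 libraries: cluster 0 held 1738 control and 220 MYC cells, cluster 1 held 991 and 103, and cluster 14 held 266 and 2069. The libraries shared 97 barcode sequences. The transgene feature had 121 MYC-library UMIs in mature neutrophils, 80 in immature neutrophils, 45 in monocytes and 10 in stem or multipotent progenitors. It had 6 in erythroid cells, 3 each in granulocyte progenitors and T or NK cells, and 1 in basophils or mast cells. Mature B cells had 0.

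Proteasome transcripts took more of the class total in progenitor, early erythroid and monocyte classes than in neutrophils. Summed over the 47 genes, the control level was 5529 UMIs per 1000000 UMIs of the class (CPM) in stem or multipotent progenitors, 5253 in erythroid cells, 5219 in monocytes, 5077 in granulocyte progenitors, 3950.2 in basophils or mast cells, 3205 in T or NK cells, 2984 in mature B cells, 2495 in immature neutrophils and 1627 in mature neutrophils. In the MYC library the same sums were 7026, 5996, 6700.1, 5790.0, 5194, 4298, 3181, 3141 and 2096 CPM. Of the 9 classes, stem or multipotent progenitors stood highest and mature neutrophils lowest in both libraries. The erythroid clusters differed, with 3927 CPM in the control and 4926 in MYC for cluster 9, and 7154 and 6945 for cluster 23. The unnamed cluster 3, nearest to erythroblasts, stood at 2199 and 2967 CPM. The exact Poisson 95% interval was 5482 to 5576 for the control stem or multipotent progenitors and 6978 to 7076 for the MYC ones. These intervals cover counting error only, here and throughout, since cells of 1 library are not replicates. A sum in CPM is a share of the RNA of a class, so a higher value and a lower level of the other transcripts cannot be told apart.

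**Figure D1:**
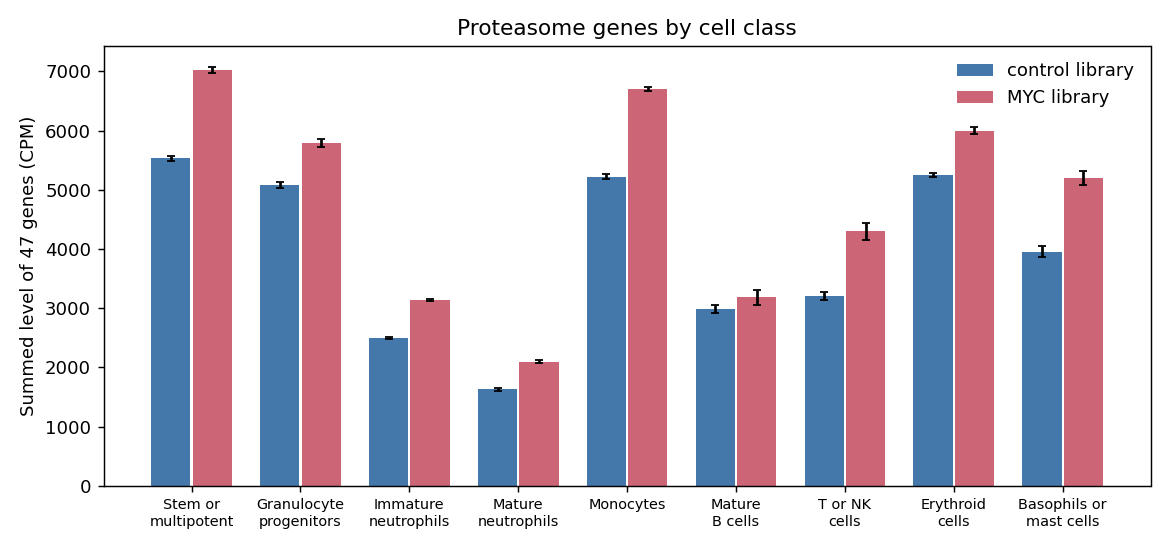
Summed level of the 47 proteasome genes (y axis, CPM) in the 9 cell classes (x axis), as 1 bar per library with exact Poisson 95% intervals. The MYC bar is the higher one in every class, from 3181 against 2984 in mature B cells to 7026 against 5529 in stem or multipotent progenitors.

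Gene by gene, 42 of 45 genes with at least 1000 UMIs were lowest in mature neutrophils in the control, and 36 of 45 were in the MYC library, where 7 others were lowest in mature B cells. Among all 9468 genes at that depth, 42.7% and 40.1% were lowest in mature neutrophils. Erythroid cells held the highest control level of 23 genes (18.4% of all genes), stem or multipotent progenitors of 8, granulocyte progenitors of 6, monocytes of 6, and mature B cells and basophils or mast cells of 1 each. In the MYC library the highest level was in erythroid cells for 15 genes (16% of all genes), in stem or multipotent progenitors for 13, in monocytes for 8, in granulocyte progenitors for 5, in T or NK cells for 2, and in mature B cells and basophils or mast cells for 1 each. For the highest level in classes other than erythroid cells, and the lowest in mature B cells, no share over all genes was computed. Those counts have no background. Psmb11, the core subunit of thymic cortical cells, had 3 and 2 UMIs in all kept cells. Psma8, the alpha subunit of the testis proteasome, had 184 and 125 UMIs and reached 50 in 3 classes.

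The summed level was higher in the MYC library in all 9 classes. The ratio was 1.34 (95% interval 1.29 to 1.39) in T or NK cells, 1.31 (1.27 to 1.36) in basophils or mast cells, 1.29 (1.26 to 1.31) in mature neutrophils, 1.28 (1.272 to 1.296) in monocytes, 1.27 (1.26 to 1.28) in stem or multipotent progenitors and 1.26 (1.247 to 1.270) in immature neutrophils. It was smaller in granulocyte progenitors, at 1.14 (1.12 to 1.16), in erythroid cells, at 1.14 (1.13 to 1.16), and in mature B cells, at 1.07 (1.02 to 1.12). Over the 24 clusters taken singly, 23 had a ratio above 1, and in 22 its interval lay above 1. The exception was erythroid cluster 23, with a ratio of 0.971 (0.956 to 0.986), while erythroid cluster 9 had 1.254 (1.231 to 1.278). The unnamed cluster 3, nearest to erythroblasts and not in the erythroid class, had 1.35 (1.29 to 1.41). The mature neutrophil clusters 0, 1 and 14, which the libraries filled unequally, had 1.36 (1.303 to 1.43), 1.31 (1.22 to 1.41) and 1.33 (1.27 to 1.40). In cells thinned to 2000 UMIs each, the mean number of proteasome UMIs per cell was also higher in the MYC library in every class. It was 10.6 against 13.1 in stem or multipotent progenitors, 10.0 against 12.8 in monocytes and 3.26 against 4.08 in mature neutrophils, where the unthinned means were 124 and 154, 63.5 and 93.1, and 6.13 and 10.8. Cells under 2000 UMIs were left out, between 0.467% and 19.1% of a class.

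Counts of single genes were read against all genes that reached 50 UMIs in a class, called higher or lower at a difference of at least 0.32 in log2(CPM + 1). In stem or multipotent progenitors 23 of 46 proteasome genes were higher in the MYC library, against 14.7% of all genes, and 5 were lower, against 32.3%. In granulocyte progenitors 15 of 45 were higher (13.6% of all genes) and 7 lower (47.2%). Immature neutrophils had 22 of 45 higher (15.3%) and 5 lower (36.4%), and mature neutrophils 26 of 44 higher (16%) and 3 lower (39.9%). Monocytes had 28 of 46 higher (19.5%) and 2 lower (33.6%). Mature B cells had 10 of 43 higher (14.8%) and 11 lower (47%). T or NK cells had 21 of 44 higher (21.9%) and 4 lower (28.8%). Erythroid cells had 17 of 46 higher (24.1%) and 11 lower (32.3%), with 25 higher and 7 lower in cluster 9 alone (796 control and 199 MYC cells) and 8 and 12 in cluster 23 alone (267 and 103). For single clusters no share over all genes was computed, so their counts have no background. Basophils or mast cells had 24 of 42 higher (18.4%) and 4 lower (39.4%). The share of proteasome genes that were higher was thus above that of all genes in each class, and nearest to it in mature B and erythroid cells. The counting interval of the ratio lay above 1 for 23, 15, 22, 25, 28, 9, 18, 17 and 23 of the higher genes, in the same order of classes. It lay below 1 for 4, 7, 5, 3, 2, 5, 1, 10 and 1 of the lower genes.

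The median log2 ratio of the tested proteasome genes was 0.33 in stem or multipotent progenitors, 0.15 in granulocyte progenitors, 0.31 in immature neutrophils, 0.35 in mature neutrophils, 0.41 in monocytes, 0.41 in basophils or mast cells, 0.32 in T or NK cells and 0.21 in erythroid cells. In mature B cells it was -0.09, and 0.21 under median-of-ratios scaling. The median over all tested genes was below 0 in each class, between -0.29 in granulocyte progenitors and -0.06 in T or NK cells. Median-of-ratios scaling sets that centre near 0, with shifts of -0.16 log2 units in stem or multipotent progenitors, -0.30 in granulocyte progenitors, -0.21 in immature neutrophils, -0.22 in mature neutrophils, -0.15 in monocytes, -0.29 in mature B cells, -0.08 in erythroid cells, -0.06 in T or NK cells and -0.19 in basophils or mast cells. Under it the higher and lower counts became 33 and 1 in stem or multipotent progenitors (23.9% and 18.1% of all genes), 29 and 3 in granulocyte progenitors (28.6% and 21.6%), 32 and 1 in immature neutrophils (26.8% and 16.9%), 33 and 1 in mature neutrophils (27.0% and 23.2%) and 35 and 2 in monocytes (27.3% and 21.8%). They became 18 and 4 in mature B cells (28.6% and 25.5%), 25 and 3 in T or NK cells (26.0% and 24.1%), 21 and 7 in erythroid cells (28.5% and 26.9%) and 29 and 1 in basophils or mast cells (28.2% and 25.1%).

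Counts by role were taken over pairs of a gene and a class in which it was tested. Over all genes, 17.5% of such pairs were higher and 37.1% lower in the MYC library. Median-of-ratios scaling adds a positive amount to every log2 ratio, so it can end lower calls and not higher ones. Of the 52 proteasome pairs called lower, 23 were also lower under it.

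Psmb5 encodes the subunit with chymotrypsin-like activity (chr14:54614119-54618022, GRCm38). In the control it stood at 226 CPM in granulocyte progenitors, 167 in stem or multipotent progenitors, 144 in monocytes, 112 in basophils or mast cells, 109 in erythroid cells, 78.5 in immature neutrophils, 71.5 in T or NK cells, 49.0 in mature B cells and 44.1 in mature neutrophils. The MYC levels in that order were 312, 259, 246, 154, 180, 130, 100, 75.2 and 76.9 CPM. Each MYC value was above its control value, with ratios from 1.37 (1.13 to 1.67) in basophils or mast cells to 1.74 (1.56 to 1.95) in mature neutrophils.

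Psmb6, the caspase-like subunit (chr11:70525367-70527858), stood in the control at 147 CPM in stem or multipotent progenitors, 140 in monocytes, 128 in granulocyte progenitors, 106 in erythroid cells, 87.0 in basophils or mast cells, 61.6 in immature neutrophils, 60.5 in T or NK cells, 50.9 in mature B cells and 21.5 in mature neutrophils. Its MYC levels in that order were 229, 237, 189, 174, 157, 104, 110, 78.1 and 49.96 CPM. The ratio was highest in mature neutrophils, at 2.32 (1.997 to 2.70), and lowest in granulocyte progenitors, at 1.48 (1.36 to 1.62). Psmb7, the trypsin-like subunit (chr2:38588036-38644087), did not share this pattern in every class. Its ratio was 1.34 (1.251 to 1.43) in monocytes and 1.29 (1.13 to 1.47) in mature neutrophils, but 0.857 (0.763 to 0.962) in granulocyte progenitors, where it stood at 101 and 86.5 CPM and where its log2 ratio turned from -0.22 to 0.08 under median-of-ratios scaling. In stem or multipotent progenitors it stood at 106 and 119 CPM, in immature neutrophils at 63.8 and 72.2, in erythroid cells at 120 and 132, in T or NK cells at 53.9 and 67.5, in basophils or mast cells at 72.0 and 78.3, and in mature B cells at 56.8 and 46.8. Counting the 3 catalytic genes over the 9 classes, 20 of 27 pairs were higher and 0 lower.

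The other beta subunits that were tested, which shape the ring without cutting, were higher in 28 of 36 gene and class pairs and lower in 0. Psmb11 was not among those tested. Psmb2 (chr4:126677630-126709714) was among the 3 highest ratios in each of the 6 classes that held 200 cells or more in both libraries. It stood at 126 and 212 CPM in stem or multipotent progenitors, 138 and 226 in granulocyte progenitors, 50.5 and 90.4 in immature neutrophils, 22.0 and 48.6 in mature neutrophils, 116 and 207 in monocytes, 41.1 and 85.2 in mature B cells, 59.0 and 112 in T or NK cells, 84.0 and 164 in erythroid cells, and 65.7 and 158 in basophils or mast cells. The ratios ran from 1.64 (1.51 to 1.78) in granulocyte progenitors to 2.404 (1.91 to 3.04) in basophils or mast cells. Psmb4 had a ratio of 0.967 (0.896 to 1.04) in granulocyte progenitors, the lowest of this group.

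Alpha ring genes were higher in 43 of 66 pairs and lower in 2, both of them Psma8, on 58 and 47 UMIs in stem or multipotent progenitors and 43 and 9 in erythroid cells, with intervals that include 1. Psma2 ratios ran from 1.46 (1.15 to 1.83) in mature B cells to 1.89 (1.56 to 2.28) in T or NK cells. Psma5 ratios ran from 1.47 (1.38 to 1.57) in stem or multipotent progenitors to 2.0 (1.51 to 2.63) in T or NK cells. Psma7 differed less, at 1.09 (1.03 to 1.16) in granulocyte progenitors and 1.18 (1.15 to 1.21) in monocytes, and more in mature neutrophils, at 1.59 (1.48 to 1.71).

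The genes of the 19S cap were less uniform. The ATPases were higher in 16 of 54 pairs and lower in 4 (Psmc1 in granulocyte progenitors, mature B and erythroid cells, and Psmc3 in mature B cells). The non-ATPase subunits were higher in 38 of 99 and lower in 11. Both compare with 17.5% higher and 37.1% lower over all genes. Under median-of-ratios scaling the ATPases had 31 pairs higher and 1 lower (Psmc1 in mature B cells), and the non-ATPase subunits 51 and 3. Of all genes, 23.9% to 28.6% per class were higher under that scaling and 16.9% to 26.9% lower. Summed over the 6 ATPases, the ratio was 1.28 in monocytes, 1.22 in stem or multipotent progenitors, 0.98 in granulocyte progenitors and 0.84 in mature B cells. Psmd8, a non-ATPase subunit, had ratios from 1.29 (0.959 to 1.71) in mature B cells to 1.66 (1.33 to 2.08) in basophils or mast cells. Its control level was 84.0 CPM in granulocyte progenitors and its MYC level 133. Psmd2, a large scaffold subunit of the cap, lay on the other side. It stood at 155 and 98.7 CPM in erythroid cells, a ratio of 0.637 (0.584 to 0.694), and at 63.9 and 47.8 CPM in immature neutrophils, a ratio of 0.748 (0.700 to 0.7996). Under median-of-ratios scaling the erythroid call remained and the immature neutrophil one did not (log2 ratio -0.20).

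Psmd13, another non-ATPase subunit (chr7:140881968-140898643), had opposite signs in 2 classes. In granulocyte progenitors its control level was 90.3 CPM and its MYC level 125, a ratio of 1.39 (1.249 to 1.55). In erythroid cells the levels were 108 and 83.4 CPM, a ratio of 0.772 (0.700 to 0.849). Under median-of-ratios scaling the erythroid log2 ratio was -0.29, no longer past the fold. The difference between the classes was not tested.

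Assembly chaperones, which build the complex and do not stay in it, were higher in 32 of 62 pairs and lower in 11, against 17.5% and 37.1% over all genes. Under median-of-ratios scaling these were 40 and 3, against 23.9% to 28.6% of all genes higher and 16.9% to 26.9% lower per class. Psmg1, part of the first alpha ring chaperone pair, stood at 32.3 and 53.4 CPM in stem or multipotent progenitors, 7.66 and 15.8 in immature neutrophils, 10.8 and 20.03 in monocytes, and 22.5 and 40.9 in erythroid cells. The ratios there were 1.65 (1.44 to 1.90), 2.06 (1.76 to 2.41), 1.86 (1.53 to 2.27) and 1.82 (1.56 to 2.12). Psmg3, of the second chaperone pair, had a ratio of 1.66 (1.46 to 1.88) in stem or multipotent progenitors and 1.79 (1.54 to 2.07) in monocytes. Its partner Psmg4 stood at 3.81 and 7.499 CPM in mature neutrophils and 33.7 and 60.9 CPM in erythroid cells.

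Of the chaperones of the 19S base, Psmd9 and Psmd10 were each higher in 7 classes and lower in 1, mature B cells, with an interval there that includes 1, and Psmd5 was lower in 8. Psmd9 stood at 30.7 and 51.1 CPM in granulocyte progenitors, a ratio of 1.66 (1.39 to 1.99), and at 27.1 and 19.9 CPM in mature B cells, a ratio of 0.733 (0.384 to 1.301). Psmd5 had a ratio below 1 in all 9 classes, from 0.542 (0.477 to 0.615) in erythroid cells, at 84.7 and 46.0 CPM, to 0.865 (0.745 to 1.01) in monocytes. In stem or multipotent progenitors it stood at 37.1 and 27.1 CPM and in mature neutrophils at 13.03 and 8.97 CPM. Under median-of-ratios scaling Psmd5 stayed below 0 in each class and past the fold in 2, erythroid and T or NK cells.

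Of the pairs of activators and the inhibitor, 6 of 52 were higher and 24 lower, counts nearer to the shares over all genes (17.5% and 37.1%) than those of the core. Under median-of-ratios scaling 13 were higher and 16 lower, where 23.9% to 28.6% of all genes per class were higher and 16.9% to 26.9% lower. Psme4 encodes PA200, a nuclear activator linked to histone turnover (chr11:30771726-30880361). Its control and MYC levels were 65.1 and 47.4 CPM in stem or multipotent progenitors, 52.9 and 32.5 in granulocyte progenitors, 43.7 and 33.6 in immature neutrophils, 58.5 and 45.2 in mature neutrophils, 82.2 and 51.6 in monocytes, 61.4 and 41.2 in mature B cells, 49.5 and 33.7 in T or NK cells, 79.3 and 53.4 in erythroid cells, and 68.5 and 29.3 in basophils or mast cells. Psme4 was the 1 gene, of the 41 tested in all 9 classes, that was lower by the fold in every class, with ratios from 0.427 (0.294 to 0.610) in basophils or mast cells to 0.772 (0.688 to 0.866) in mature neutrophils. How many of all genes were lower in every class was not computed. Under median-of-ratios scaling it stayed below 0 in each class but passed the fold in 5, and not in stem or multipotent progenitors, immature neutrophils, mature neutrophils or mature B cells.

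Psme3, which encodes the nuclear PA28 gamma activator (chr11:101316213-101323537), was highest in erythroid cells in both libraries, at 156 and 100 CPM. It stood at 83.1 and 63.7 CPM in stem or multipotent progenitors, 69.6 and 38.6 in granulocyte progenitors, 39.1 and 30.2 in immature neutrophils, 28.1 and 23.5 in mature neutrophils, 51.2 and 45.0 in monocytes, 58.4 and 39.7 in mature B cells, 58.3 and 44.6 in T or NK cells, and 49.5 and 40.8 in basophils or mast cells. The ratio was below 1 in all 9 classes, and lowest in granulocyte progenitors at 0.555 (0.471 to 0.652). It passed the fold in 6 classes, and under median-of-ratios scaling in 2, granulocyte progenitors and erythroid cells.

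Psme1 and Psme2 encode the interferon-inducible PA28 alpha and beta activators. In T or NK cells Psme1 stood at 343 and 492 CPM, a ratio of 1.43 (1.27 to 1.61), and in monocytes at 355 and 329 CPM, a ratio of 0.928 (0.893 to 0.964). Its other ratios ran from 0.975 (0.914 to 1.04) in granulocyte progenitors to 1.20 (1.02 to 1.40) in mature B cells. Psme2 had the same signs in these classes, at 136 and 225 CPM in T or NK cells, a ratio of 1.66 (1.39 to 1.99), and 213 and 196 CPM in monocytes, a ratio of 0.919 (0.875 to 0.966). Under median-of-ratios scaling the monocyte log2 ratios turned from -0.11 to 0.04 for Psme1 and from -0.12 to 0.02 for Psme2. Basophils or mast cells had a Psme2 ratio of 1.48 (1.20 to 1.84), and the other 6 classes between 1.08 and 1.254.

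Psmf1 (chr2:151715812-151744186) had its highest level in erythroid cells in both libraries. The level was 107 CPM in control erythroid cells, where the next class, stem or multipotent progenitors, had 21.6, and at 74.1 CPM in MYC erythroid cells, where the next, T or NK cells, had 24.1. Its ratio was 0.693 (0.626 to 0.766) in erythroid cells and 1.43 (1.10 to 1.86) in granulocyte progenitors, where it stood at 15.3 and 21.8 CPM. In the remaining classes the interval of the ratio included 1, with values from 0.890 (0.732 to 1.08) in stem or multipotent progenitors to 1.34 (0.756 to 2.30) in T or NK cells. The difference between erythroid cells and granulocyte progenitors was not tested.

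**Figure D2:**
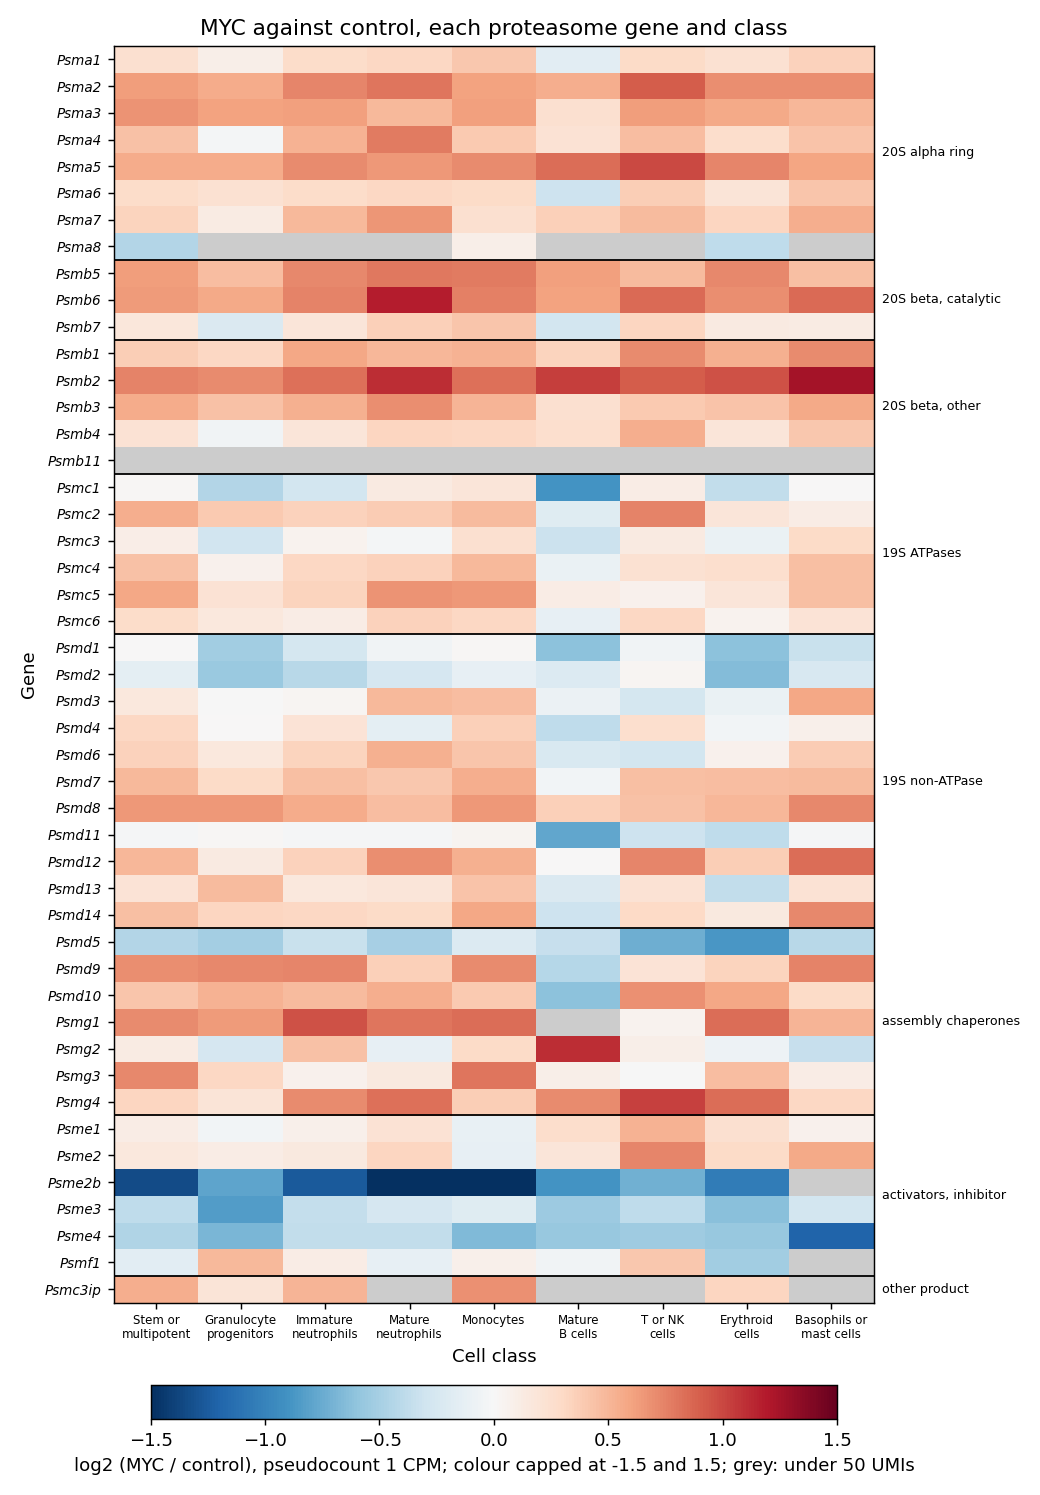
Log2 ratio of MYC to control (colour, limited to 1.5 in either direction) for each proteasome gene (y axis, grouped by role) in the 9 classes (x axis), with grey for genes under 50 UMIs in the class. Psma2, Psma5, Psmb2, Psmb5, Psmb6 and Psmd8 are higher by the fold in all 9 classes, and Psme4 is lower in all 9 (in 5 under median-of-ratios scaling).

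Of the 41 genes tested in all 9 classes, 6 were higher by the fold in each one: Psma2, Psma5, Psmb2, Psmb5, Psmb6 and Psmd8. A positive log2 ratio in all 9 was found for 13 genes, and a negative one for 3, namely Psmd5, Psme3 and Psme4. The share of all genes with the same call or sign in all 9 classes was not computed, so these counts have no background. Psmd4, Psmd9, Psmd10, Psmd13, Psmf1 and Psmg2 were called in opposite directions in different classes. Under median-of-ratios scaling the lower call was lost for Psmd4 and Psmd9 in mature B cells, Psmd13 in erythroid cells and Psmg2 in basophils or mast cells, where the interval of Psmg2 includes 1. Psmg2 was higher in mature B cells at 2.22 (1.34 to 3.59), on 53 and 27 UMIs.

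Psme2b, a gene almost identical in sequence to Psme2, had ratios from 0.287 (0.248 to 0.331) in monocytes to 0.595 (0.345 to 0.976) in T or NK cells over the 8 classes where it was tested. It was the lowest proteasome gene in 5 of them, while Psme3 was lower in granulocyte progenitors, Psmc1 in mature B cells and Psmd5 in T or NK cells. Over the last 500 bases, where 3′ reads fall, 69.6% of its 31-base words were found in other genes, so its split from Psme2 is uncertain. It also overlaps 9930111J21Rik1 on the same strand. The same share was 77.2% for Psma5, 73.6% for Psmb3, 68.7% for Psme2, 63.4% for Psmb5, 58.5% for Psmd1, 57.7% for Psmd2, 35.5% for Psmc1, 27.0% for Psme1, 21.3% for Psma4 and 15.5% for Psmb6. Their levels may include or lack reads of those copies. For Psmb2, Psme3, Psme4 and Psmf1 no such word was shared.

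Along the neutrophil lineage the level of most genes was lower at each later stage. Granulocyte progenitors exceeded immature neutrophils, and these exceeded mature neutrophils, for 42 of 45 genes in the control and 43 of 45 in the MYC library. Of all 9468 genes, 48.3% and 48% followed that order. The median mature to progenitor ratio over the proteasome genes was 0.311 for the control and 0.364 for MYC, and over all genes 0.554 and 0.600. For Psmb5 that ratio was 0.195 and 0.247, for Psmb6 0.169 and 0.264, and for Psmb7 0.340 and 0.511. Psme4 was an exception, with 1.11 (0.974 to 1.26) for the control and 1.39 (1.17 to 1.65) for MYC. Psme2b was the other, at 5.55 (4.14 to 7.57) and 3.28. Psmd4, a ubiquitin receptor of the cap, stood at 141, 80.0 and 85.2 CPM over the 3 control stages. The summed level of granulocyte progenitors over that of mature neutrophils was 3.12 (3.07 to 3.18) for the control and 2.76 (2.72 to 2.81) for MYC. With the 20 most abundant genes taken out of the denominator these were 2.18 and 1.76.

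**Figure D3:**
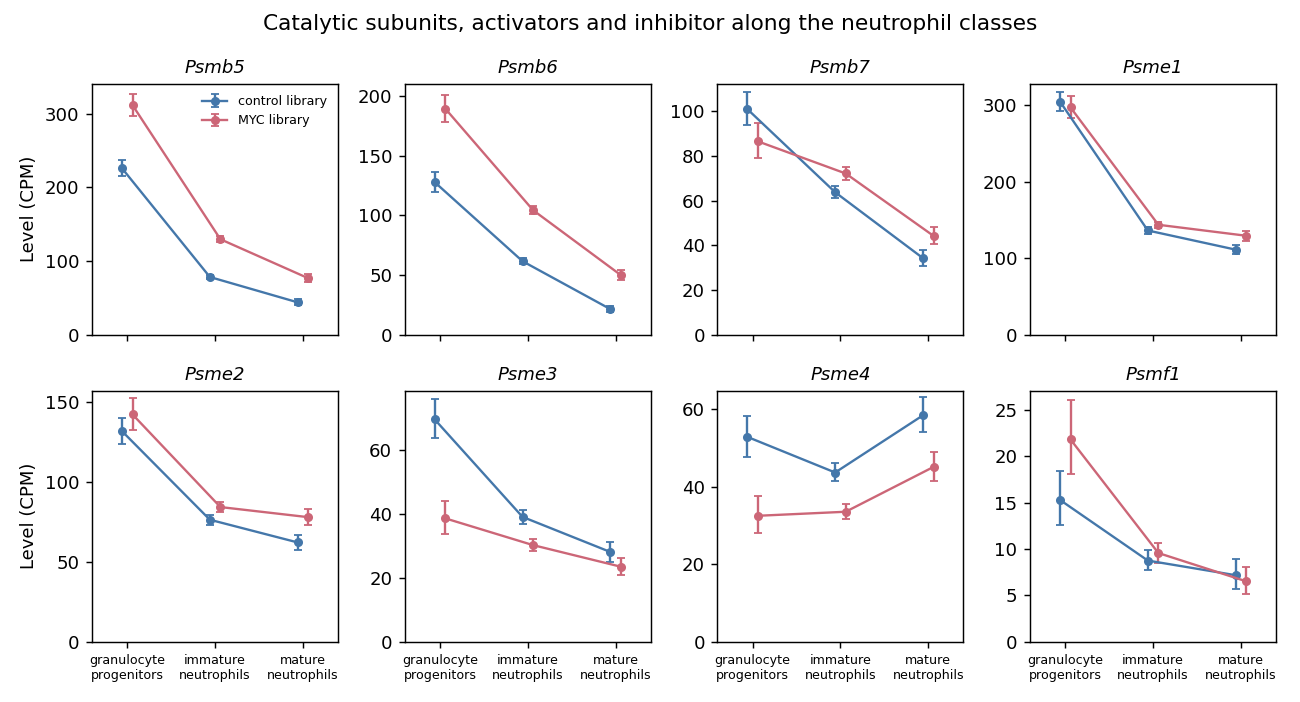
Level (y axis, CPM) of Psmb5, Psmb6, Psmb7, Psme1, Psme2, Psme3, Psme4 and Psmf1 over granulocyte progenitors, immature and mature neutrophils (x axis), 1 line per library with exact Poisson 95% intervals. The catalytic genes drop at each stage, Psmb5 from 226 to 44.1 in the control, while Psme4 stays between 32.5 and 58.5.

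Genes around the proteasome, from a list fixed by function, were read the same way, against 17.5% of pairs higher and 37.1% lower over all genes. Over gene and class pairs, ubiquitin genes were higher in 22 of 36 and lower in 1. Ubb, a polyubiquitin gene, was higher in all 9 classes with log2 ratios from 0.91 to 1.501, at 566 CPM in control and 1168 in MYC stem or multipotent progenitors. Rps27a, a ubiquitin and ribosomal protein fusion, was higher in all 9, from 0.40 to 1.12. The immunoproteasome genes were higher in 14 of 27 pairs and lower in 1, and Psmb8 was higher in 8 of 9 classes (log2 ratio 0.12 to 1.60). Proteasome-bound proteins with other symbols were higher in 11 of 63 pairs and lower in 14. Of those 14, 9 were Ecpas, a proteasome-binding adaptor, which was lower in every class (-0.79 to -0.38). Genes of substrate delivery were higher in 5 of 103 and lower in 45, with Vcp, the unfolding ATPase, and Uba1, the ubiquitin-activating enzyme, lower in 7 classes each. Genes of transcriptional control were higher in 0 of 45 and lower in 22. Nfe2l1, the gene of NRF1, was lower in 2 classes (-0.50 to 0.20), Nfe2l2 in 5 and Ddi2, whose protein cleaves NRF1, in 6. All calls in this paragraph are under CPM scaling, and median-of-ratios scaling can end lower ones.

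Transcript length moved with the ratio, among proteasome genes and among all genes. Short transcripts tended to be higher in the MYC library. Length bins were chosen after seeing the data. Among genes under 1500 bases, the higher proteasome genes were 14 of 24 in stem or multipotent progenitors (43.6% of all genes of that length), 7 of 24 in granulocyte progenitors (43.3%), 14 of 24 in immature neutrophils (46.6%), 16 of 23 in mature neutrophils (45.0%), 17 of 24 in monocytes (53.7%), 7 of 22 in mature B cells (42.0%), 13 of 23 in T or NK cells (55.3%), 10 of 24 in erythroid cells (56.0%) and 15 of 22 in basophils or mast cells (52.7%). The short proteasome genes thus stood below the share of their length in granulocyte progenitors, mature B cells and erythroid cells. Among short genes at 50 CPM or more, the higher ones were 7 of 14 in immature neutrophils (50.7% of all such genes) and 5 of 9 in mature neutrophils (52.9%). Stem or multipotent progenitors had 11 of 20 (49.0%), monocytes 13 of 18 (58.7%) and T or NK cells 11 of 15 (60.6%). Basophils or mast cells had 14 of 17 (56.9%), granulocyte progenitors 6 of 19 (45.3%), mature B cells 5 of 15 (50.4%) and erythroid cells 6 of 18 (55.9%). Of genes from 1500 to under 3000 bases, the higher ones were 9 of 18 (15%), 7 of 17 (12.6%), 8 of 17 (14.5%), 10 of 17 (16%), 11 of 18 (20.8%), 3 of 17 (14.2%), 7 of 17 (23.1%), 7 of 18 (25.4%) and 9 of 17 (18.6%), in the same order of classes. In this middle bin the share of proteasome genes that were higher was above that of their length in each class, but near it in mature B cells (3 of 17 against 14.2%). In erythroid cells 6 of 18 were lower, against 25.3% of all genes of that length. Of the tested genes, Psmd1, Psmd5, Psme4 and Psmf1 reached 3000 bases. Of these 4, the lower ones were 2 in stem or multipotent progenitors (48.2% of all genes of that length), 3 in granulocyte progenitors (68.8%), 2 in immature neutrophils (53.5%), 2 in mature neutrophils (51.1%), 1 in monocytes (49.4%), 3 in mature B cells (60.7%), 4 in erythroid cells (45.1%) and 2 in T or NK cells (39.5%). In basophils or mast cells 3 of 3 tested were lower (57.7%). Across the tested proteasome genes of 1 class, the correlation of log2 ratio with log2 length ran from -0.55 in erythroid cells to -0.25 in monocytes, and across all tested genes from -0.53 in granulocyte progenitors to -0.38 in mature neutrophils. The median lengths were 899 bases for the catalytic genes, 1183 for the other beta genes, 1220 for the alpha genes, 1614 for the ATPases, 1904 for the non-ATPase subunits, 1059 for the chaperones and 1888 for the activators and inhibitor. The part of length in the differences between roles was not tested.

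**Figure D4:**
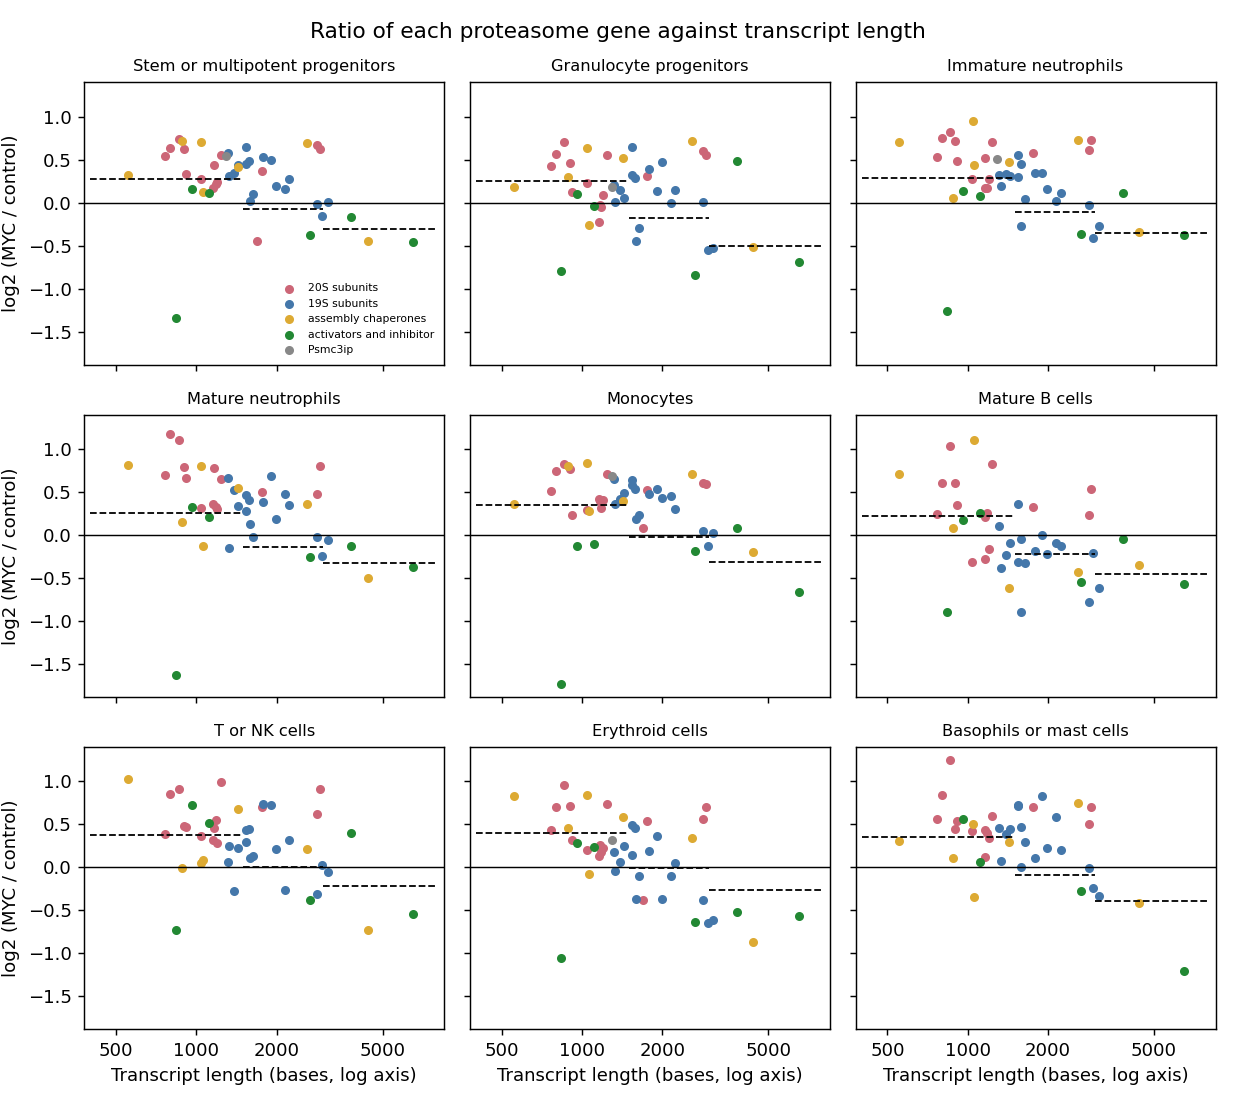
Log2 ratio of MYC to control (y axis) of each tested proteasome gene against transcript length in bases (x axis, log scale) in the 9 classes, coloured by role, with dashed lines for the median of all protein-coding genes in 3 length bins. The dashed lines step down with length in every class, and the green point farthest to the right, at 6491 bases, is Psme4.

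Other gene groups differed between the libraries in the same classes. Summed ribosomal protein transcripts (80 genes), which are short, were higher in the MYC library in all 9 classes, by 0.31 log2 units in stem or multipotent progenitors, 0.38 in granulocyte progenitors, 0.81 in immature neutrophils, 0.81 in mature neutrophils, 0.69 in monocytes, 0.99 in mature B cells, 0.80 in erythroid cells, 0.59 in T or NK cells and 0.53 in basophils or mast cells. The 26 proliferation genes summed to less in the MYC library in 8 classes, by -1.25 log2 units in mature B cells and by -0.60 in both mature neutrophils and erythroid cells, and to 0.08 more in T or NK cells. Haemoglobin and other erythroblast transcripts, which outside the erythroid class can come from free RNA, summed to less in the MYC library in the 8 other classes and to 0.17 log2 units more in erythroid cells. Single genes did not all follow the sum. Of the 10 genes, 8 were higher in the MYC library in T or NK cells, and 3 in erythroid cells. The 28 neutrophil markers summed to 3185 and 5263 CPM in mature B cells and to 6487 and 9738 CPM in T or NK cells, with 1 marker at 0 in each library of both classes. Mitochondrial transcripts summed to less in the MYC library in granulocyte progenitors (-0.56 log2 units), erythroid cells (-0.32), stem or multipotent progenitors (-0.30), basophils or mast cells (-0.24), T or NK cells (-0.20), monocytes (-0.08) and immature neutrophils (-0.03), and to more in mature neutrophils (0.31) and mature B cells (0.01). With the same classes and only cells under 5% mitochondrial UMIs, an alternative chosen after seeing the data, 159 control and 241 MYC granulocyte progenitors were left. Their median log2 ratio of proteasome genes was 0.30 in place of 0.15, and that of erythroid cells 0.37 in place of 0.21. Median UMIs per cell differed too, at 3596 and 5000 in mature neutrophils. Over clusters of 1 library, the summed proteasome level had a correlation of 0.68 with the proliferation genes in the control (21 clusters) and 0.65 in the MYC library (20 clusters), and the clusters share a library and its depth. The rank correlations with the proliferation genes were 0.68 and 0.64. With the median UMIs per cell of a cluster they were 0.59 and 0.66. The part of these in the proteasome values was not tested.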

How the data were processed

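The data are counts of unique molecular identifiers (UMIs) per gene and cell barcode, deposited by the authors as 1 sparse matrix per library. Per the labels' protocols the libraries were made with a 3′ single-cell kit. The submitters' processing notes name Cell Ranger 6.0, Seurat and the builds GRCm38 and mm10, and no step beyond these is given in the sources used here.

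Cells with at least 500 UMIs, 200 genes and under 10% mitochondrial UMIs were kept. Scrublet in scanpy 1.11.5 called 701 control and 251 MYC doublets at an expected rate of 0.8% per 1000 barcodes, and these were removed. Clusters came from Leiden at resolution 1 on 2000 variable genes (30 components, 15 neighbours) without the Psm genes, and were named from fixed marker lists where at least 3 markers were detected. No correction for free RNA was made. Dendritic cells were named in no cluster. Plasmacytoid dendritic cells, macrophages, B progenitors, plasma cells and megakaryocytes had under 100 cells in a library and were not compared, and unnamed clusters were left out.

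UMIs were summed per class and library and scaled to 1000000 UMIs (CPM), with exact Poisson 95% intervals. Ratios of CPM have exact conditional binomial 95% intervals (SciPy 1.17.1). Log2 ratios use a pseudocount of 1 CPM and genes whose UMIs in a class reached 50 over both libraries. With 1 library per group no test was made. Since 3′ counts are not divided by length, levels were not compared between genes. Gene positions, lengths and shared 31-base words came from GENCODE vM21, in which all 47 genes matched by identifier. The script was tested on simulated data.

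Named with values were the catalytic, activator and inhibitor genes, and where a class held 200 or more cells in both libraries, the 3 highest and 3 lowest ratios whose interval excludes 1. The other genes named were chosen after their values were seen. The genes and lists were chosen with earlier results of these data known. Alternatives covered scaling, denominator, filters, pseudocount, fold, doublets, resolution and class assignment.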

Additional observations from a re-analysis of the deposited data

Results flagged for a closer look

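Of 9 proteasome genes whose counting interval lay above 1 in one class and below 1 in another (Psmb7, Psmc1, Psmc3, Psmd4, Psmd13, Psme1, Psme2, Psmf1 and Psmg2), Psmd13 and Psmf1 passed the fold with such an interval in both directions, Psmd13 under CPM scaling only (its erythroid value was -0.29 under median-of-ratios scaling). Psmd13 had 0.47 in granulocyte progenitors and -0.37 in erythroid cells. Psmf1 had 0.49 in granulocyte progenitors and -0.52 in erythroid cells. The difference between the classes was not tested, since each class has 1 library per group.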

How the results depend on the processing

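No paired analysis was possible because each group has 1 library. The median log2 ratio of the proteasome genes kept its sign in 8 of the 9 classes under the alternatives that used whole classes, and in mature B cells it ranged from -0.21 to 0.21. In erythroid cluster 23 taken alone it reversed, to -0.10. Under median-of-ratios scaling it was 0.49 in stem or multipotent progenitors, 0.46 in granulocyte progenitors, 0.52 in immature neutrophils, 0.57 in mature neutrophils, 0.56 in monocytes and 0.60 in basophils or mast cells. With the denominator stripped of its 20 most abundant genes it was 0.28 in monocytes, 0.15 in T or NK cells and 0.060 in erythroid cells. It was 0.28 in mature neutrophils with a pseudocount of 10 CPM, 0.27 there with doublets kept, and 0.40 in granulocyte progenitors with cells under 5% mitochondrial UMIs. The last 2 settings also clustered the cells anew and so changed the classes, to 500 control and 547 MYC granulocyte progenitors under the mitochondrial limit and to 4473 and 3537 mature neutrophils with doublets kept. With the main classes kept, the mitochondrial limit gave 0.30 in granulocyte progenitors and 0.37 in erythroid cells, with 21 and 24 genes higher. The share over all genes was not computed there. Single clusters, chosen after seeing the data, gave 0.52, 0.35 and 0.41 for mature neutrophil clusters 0, 1 and 14, 0.59 and 0.29 for monocyte clusters 7 and 10, 0.26, 0.22 and 0.19 for immature neutrophil clusters 2, 4 and 5, and 0.40 for erythroid cluster 9. The cause was not tested.

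The summed level of granulocyte progenitors over mature neutrophils, 3.12 in the control, was 2.20 under 5% mitochondrial UMIs, 2.87 under that limit with the main classes, 2.64 with doublets kept, 3.28 at resolution 0.5, 3.24 at resolution 2, 2.18 without the 20 most abundant genes and 3.04 in thinned cells. In the MYC library, at 2.76, it was 2.26, 2.47, 3.16 (resolution 0.5), 1.76 and 2.82 (thinned).

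Counts of higher genes moved by over 1.5 times in 15 of 114 results, and of lower genes in 25 of 114. Except under median-of-ratios scaling, the share over all genes was not computed for the alternatives, so the counts below have no background. A fold of 1.5 left 5 to 12 genes higher and 1 to 5 lower per class. Under 5% mitochondrial UMIs with new clusters 27 genes were higher in granulocyte progenitors. With a pseudocount of 10 CPM 16 were higher in mature neutrophils. Without the most abundant genes 11 were higher in erythroid cells and 13 in T or NK cells, and 17 were lower in mature B cells and 7 in T or NK cells. With the mean of the CPM of each cell 7 were lower in mature B cells and 7 in T or NK cells. With doublets kept, or under 5% mitochondrial UMIs, 3 were lower in immature neutrophils, and at resolution 2, 1 in mature neutrophils. A pseudocount of 10 CPM left 2 lower in immature neutrophils and 1 each in mature neutrophils and basophils or mast cells. Median-of-ratios scaling changed the sign of the log2 ratio in 35 of 401 pairs of a gene and a class, among them Psmb7 in granulocyte progenitors and Psme1 and Psme2 in monocytes. Its shift is smaller than the fold, so no called pair could change sign. Mature B cells were not computed under 5% mitochondrial UMIs, nor stem or multipotent progenitors at 1000 UMIs and 500 genes or at resolution 0.5, where no class of that size was named.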
